A study of Homo sapiens with 59 samples.

Results

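The genes described here are PDK1, PDK2, PDK3 and PDK4, the 4 kinases that act on the pyruvate dehydrogenase complex. They were taken as all probes that the array annotation assigns to these genes, which gave 1 probe per gene, or 4 of the 24526 probes in the deposited tables and 4 of the 11515 genes tested. Expression was measured on Illumina BeadChips in THP-1, a line from a human monocytic leukaemia whose cells take on macrophage-like features with the phorbol ester PMA. All cells, those of the DMSO groups included, had been kept for 40 h with 10 ng/ml PMA, washed and left for 2 h without it. They then received 1 µM rosiglitazone (RSG), which binds and activates the nuclear receptor PPARG, or only DMSO, its vehicle, and were harvested after 0.5, 1.5, 3, 8 or 12 h. Each of the 10 groups held 6 arrays, except RSG at 1.5 h with 5, and the comparison asked which genes changed with the ligand. The cells are 1 line grown in bulk, and the study's methods say that cells were seeded and treated per sample, while the labels do not say which arrays come from separate cultures or days, so the p-values measure the spread between these arrays.

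The pyruvate dehydrogenase complex converts pyruvate, the end product of glycolysis, to acetyl-CoA inside mitochondria. A pyruvate dehydrogenase kinase phosphorylates the E1 alpha subunit of the complex and switches it off, and a pyruvate dehydrogenase phosphatase switches it on again. PDK4 is known as the form that rises in fasting muscle, heart and liver and as a target of the PPAR receptors, PDK1 as a target of the hypoxia-inducible factor HIF1A, PDK2 as the form found in most tissues, and PDK3 as the form with the highest activity.

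The windows just upstream of the start sites of PDK4 and PDK3 are printed because these were the PDK genes with 1 annotated window each, and because the first is the gene that answered to RSG. Both are RefSeq sequences of build GRCh38.p14, 5′ to 3′ along the gene, with CCAAT boxes and ACGTG motifs in capitals on either strand. The PDK4 window is chr7:95596517-95596766 on the minus strand and the PDK3 window chrX:24465036-24465285 on the plus strand.
PDK4: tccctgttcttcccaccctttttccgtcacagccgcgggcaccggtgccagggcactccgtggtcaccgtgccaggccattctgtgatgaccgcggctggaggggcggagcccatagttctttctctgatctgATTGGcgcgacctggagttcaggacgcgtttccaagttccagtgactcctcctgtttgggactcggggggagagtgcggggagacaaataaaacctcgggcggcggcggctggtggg
PDK3: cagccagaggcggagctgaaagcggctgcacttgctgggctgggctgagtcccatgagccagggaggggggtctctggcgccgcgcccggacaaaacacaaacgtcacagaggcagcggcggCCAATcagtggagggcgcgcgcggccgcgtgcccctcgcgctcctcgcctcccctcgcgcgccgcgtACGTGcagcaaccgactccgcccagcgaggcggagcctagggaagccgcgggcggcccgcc
CCAAT, the motif of the factor NF-Y, occurred once in each window, from 117 bases before the PDK4 start site and from 128 bases before that of PDK3. It was found in 32% of 35116 windows of the same length. ACGTG, the core of the hypoxia response element, stood 61 bases before the PDK3 start site, had no match in the PDK4 window and was present in 18.5% of all windows. The nuclear receptor half-site AGGTCA (12.1% of windows), its direct repeat with a 1-base spacer (0.0171%), which contains the half-site, and the forkhead motif TGTTTAC (2.98%) had no match in the 7 windows of the 4 genes, all searched on both strands. Bases outside these windows were not searched, so sites elsewhere at these genes are not covered. The paper reports PPARG and RXR enrichment by chromatin immunoprecipitation at binding sites next to PDK4 in THP-1 cells. PDK1 had 2 annotated windows and PDK2 had 3, and the array annotation used here does not say which start site a probe reports on.

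Values are log2 intensities after background correction with an added offset of 16 and quantile normalization, so a fold change of a dim gene is understated. A probe counted as detected on an array with a detection p under 0.01, and PDK4 was detected on 38 of 59 arrays, PDK1 on 49, PDK2 on 56 and PDK3 on 58. Total signal, as the mean over all probes, ran from 318 to 1396 units per array with 12182 to 13937 probes detected. Of the 12 macrophage markers looked up, such as CD14, CD68 and SPI1, MRC1 was detected on no array and the others had a probe detected on all 59. Of the T cell list, CD3E, CD2 and CD5 were detected on none, CD3D on 4, CD3G on 5 and LCK on 59. Of the other lists, PAX5 and HBB were detected on no array, but CD79B was detected on 59, CD22 on 58, CD79A on 57, HBA2 on 42, EPCAM on 32 and MS4A1 on 22. Fewer cells of a type and less RNA per cell cannot be told apart in such bulk samples.

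5 arrays stood apart, with a median correlation to the others of 0.892 to 0.930, where the remaining 54 had 0.960 to 0.986. They were RSG 8 h replicate 1, RSG 12 h replicates 2 and 5 and DMSO 12 h replicates 4 and 6. The mean of 22 inflammatory and dendritic genes, a list drawn up with these arrays in view, was 11.79 to 13.05 on these arrays and 7.35 to 8.23 on the other 54, and LAMP3, a lysosomal protein of mature dendritic cells, stood at 13.39 to 14.01 on them and at 4.27 to 4.88 on the others. The mean of 11 macrophage markers was 9.47 to 9.77 on the arrays apart and 10.31 to 10.73 on the rest. PDK3 was 5.34 to 5.87 on the arrays apart and 6.43 to 7.53 on the 54, with no overlap, and PDK2 was 5.02 to 5.61 against 5.48 to 6.75. PDK4 was 4.39 to 5.48 on all 5, whichever treatment they carried. PDK1 was 5.27 to 5.92 on them, within the 4.76 to 5.94 of the others. Results are therefore given with all 59 arrays and with the 54.

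A further 3 arrays went against their labels. Their profile over 1000 variable genes, PDK genes left out, correlated better with another group than with their own by over 0.1. The array labelled DMSO 3 h replicate 4 correlated at 0.66 with its own group and at 0.80 with RSG 3 h, and the array labelled RSG 3 h replicate 2 at 0.61 with its own group and at 0.79 with DMSO 3 h. The array labelled RSG 0.5 h replicate 6 correlated at 0.36 with its own group and at 0.74 with RSG 3 h. Many other arrays were also nearer another group, but by less than 0.1. RSG 3 h replicate 4 was 1 of them (0.52 against 0.59 with DMSO 3 h). So were RSG 0.5 h replicates 1 to 5, all nearest DMSO 0.5 h, and DMSO 1.5 h replicates 1 to 3. Being nearest another group by a small gap was thus common. The 3 arrays past 0.1 stayed in the fits, apart from those that leave out each array in turn. PDK4 at 0.5 and 3 h is also given without all 3, as values with no test.

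PDK4 was the PDK gene that changed with RSG. Averaged over the 5 times, it was 4.08-fold higher with RSG over all 59 arrays (log2 difference 2.03, SE 0.30, limma adjusted p = 3.1e-05) and ranked 4 by p among 11515 genes, of which 28 (0.243%) were called, all higher. In the 54 arrays the difference was 2.27 (SE 0.24, limma adjusted p = 3.59e-09), with 142 genes (1.23%) called higher. PDK1, PDK2 and PDK3 were not called, with log2 differences of 0.03 (SE 0.06), 0.14 (SE 0.08) and 0.00 (SE 0.12) in the 59 arrays. In the 54, PDK2 differed by 0.16 (95% interval 0.06 to 0.27, limma adjusted p = 0.127), PDK3 by 0.07 (-0.02 to 0.16) and PDK1 by 0.02 (-0.11 to 0.16). A difference of the size seen for PDK4 lay outside each of these intervals.

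**Figure D1:**
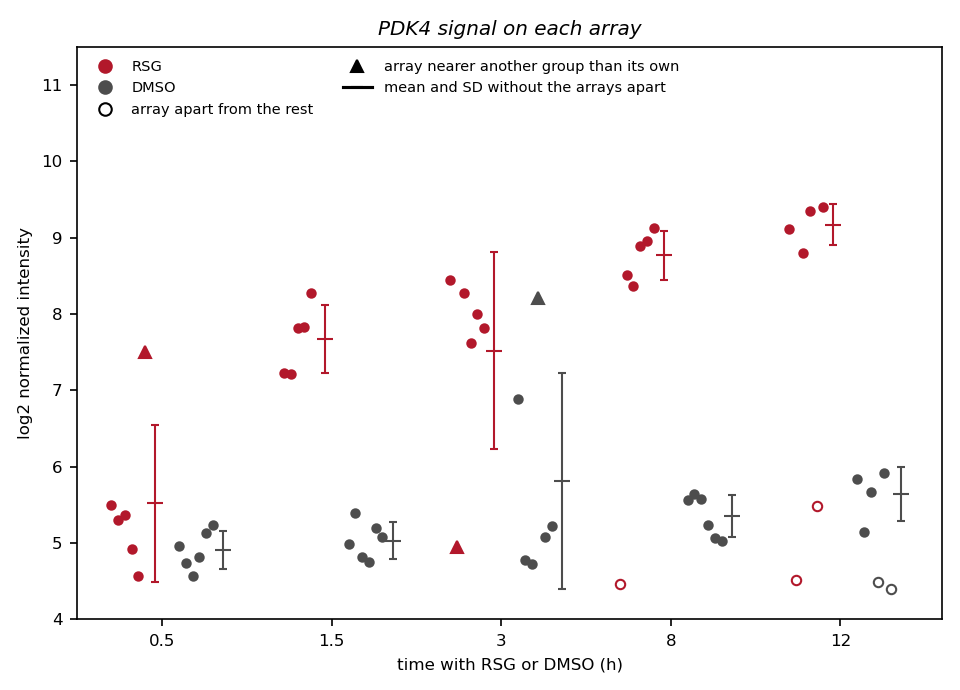
PDK4 log2 normalized intensity on each of the 59 arrays, against time in hours at equal steps, RSG in red and DMSO in grey. Open circles are the 5 arrays apart, triangles the 3 arrays nearer another group, and bars the mean and SD of the 54 arrays. From 1.5 h on, the filled RSG circles sit at 7.21 and above and the filled DMSO circles at 6.88 and below.

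At 0.5 h the PDK4 signals of the treatments overlapped. The lowest, median and highest log2 intensities were 4.56, 5.33 and 7.50 on the 6 RSG arrays and 4.57, 4.88 and 5.23 on the 6 DMSO arrays. The value of 7.50 belonged to the array labelled RSG 0.5 h replicate 6, and without it RSG averaged 5.12 ± 0.38 (SD, n = 5) and DMSO 4.91 ± 0.25 (SD, n = 6), a difference of 0.22. With it the difference was 0.61 (SE 0.42 in the 54 arrays, limma adjusted p = 1). PDK4 was detected on 4 of 6 RSG arrays and on 1 of 6 DMSO arrays, so most of these values are near background.

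By 1.5 h the groups had separated. PDK4 measured 7.22, 7.21, 7.82, 7.83 and 8.27 on the 5 RSG arrays, and on the 6 DMSO arrays its lowest, median and highest values were 4.75, 5.02 and 5.39. The probe was detected on 5 of 5 RSG arrays and on 2 of 6 DMSO arrays. Every RSG array lay above every DMSO array, as held for 38 genes (0.33%) at this time. The difference was 2.64 (95% interval 1.75 to 3.53 in the 54 arrays), or 6.23-fold against a DMSO level mostly near background, and its limma adjusted p was 0.00133 in the 54 arrays, in which 6 genes (0.0521%) were called, and 0.743 in the 59, in which 0 were called and 94 had an unadjusted p under 0.05. No array of 1.5 h stood apart, so the 2 fits differ in the spread they estimate from the other groups and not in the PDK4 values. The exact two-sided permutation p of PDK4 alone was 0.00216, the smallest that 5 and 6 arrays allow. On the scale of the deposited normalized intensities, PDK4 averaged 185 ± 67.8 units with RSG (SD, n = 5) and 16.1 ± 5.79 units with DMSO (SD, n = 6).

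At 3 h PDK4 spread widely in both groups. RSG arrays had a lowest, median and highest value of 4.95, 7.90 and 8.45, and DMSO arrays of 4.72, 5.14 and 8.21. The lowest RSG array and the highest DMSO array were those labelled RSG 3 h replicate 2 and DMSO 3 h replicate 4, each of which resembled the opposite group, and DMSO 3 h replicate 1, at 6.88, lay between the groups although its profile was nearest its own. PDK4 differed by 1.71 (95% interval 0.86 to 2.55 in the 54 arrays, limma adjusted p = 0.288 in the 54 and 1 in the 59), and the exact permutation p was 0.0584. Without the 2 arrays nearer another group by over 0.1, RSG averaged 8.03 ± 0.34 and DMSO 5.33 ± 0.89 (SD, n = 5 each), a difference of 2.70. When each array of 3 h was left out in turn, the call was made in 2 of 12 fits, at 2.19 without DMSO 3 h replicate 4 and at 2.22 without RSG 3 h replicate 2 (limma adjusted p = 0.00146 and 0.00112 in the 54 arrays), the 2 arrays already singled out by their profiles.

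At 8 h PDK4 was 8.51, 8.37, 8.89, 8.96 and 9.13 on the 5 RSG arrays among the 54 and had a lowest, median and highest value of 5.03, 5.39 and 5.64 on the 6 DMSO arrays. The groups were separate, as they were with RSG higher for 177 genes (1.54%), and the difference of 3.42 (SE 0.44) was 10.7-fold with a limma adjusted p of 4.02e-07, 91 genes (0.79%) being called higher. RSG 8 h replicate 1, an array apart, read 4.46, below every DMSO array. With it the difference was 2.70 (SE 0.65) and the limma adjusted p was 0.092, with 10 genes (0.0868%) called higher. The exact permutation p of PDK4 was 0.0152 with this array and 0.00216 without it.

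At 12 h PDK4 reached its highest level, 9.12, 8.80, 9.35 and 9.40 on the 4 RSG arrays among the 54, where the 4 DMSO arrays read 5.84, 5.14, 5.66 and 5.91. The difference of 3.53 (SE 0.52) was 11.6-fold, with a limma adjusted p of 6.71e-06 and 134 genes (1.16%) called higher, and the groups did not overlap, as for 310 genes (2.69%). The arrays apart read 4.51 and 5.48 with RSG and 4.49 and 4.39 with DMSO, and over all 59 arrays the difference was 2.54 (SE 0.65, limma adjusted p = 0.274), with 2 genes (0.0174%) called higher. In that fit the call was made without RSG 12 h replicate 2 alone (3.20) or replicate 5 alone (3.00), and the exact permutation p of PDK4 was 0.0433 in the 59 arrays and 0.0286 in the 54. In deposited intensity units PDK4 averaged 599 ± 94.8 with RSG and 37.8 ± 12.6 with DMSO (SD, n = 4 each). PDK4 was detected on 4 of these 4 RSG arrays and on 3 of the 4 DMSO arrays.

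The response of PDK4 changed over time in the 54 arrays. A joint test of its difference at the 5 times gave a limma adjusted p of 0.0185, with 0.399% of genes called. It was 0.0641 with the authors' scaled table and 1 in the 59 arrays. The RSG effect was 2.81 larger at 8 h than at 0.5 h (SE 0.61, limma adjusted p = 0.0183, 0.182% of genes called higher) and 2.92 larger at 12 h than at 0.5 h (SE 0.67, limma adjusted p = 0.0228, 0.208% called higher). Leaving out 1 array, the call at 8 h was lost without RSG 0.5 h replicate 5 or RSG 8 h replicate 6, and that at 12 h without DMSO 12 h replicate 2, RSG 0.5 h replicate 4 or 5, or RSG 12 h replicate 4 or 6, the differences then being 2.62 to 3.31 in all such fits (highest limma adjusted p = 0.0789). Between 0.5 and 1.5 h it grew by 2.03 (SE 0.61), with an unadjusted p of 0.00168 and a limma adjusted p of 1. The effect at 12 h exceeded that at 8 h by 0.11 with a 95% interval of -1.25 to 1.47, a range that takes in both a rise and a decline.

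Within RSG, PDK4 was 2.15 higher at 1.5 h, 2.00 at 3 h, 3.25 at 8 h and 3.65 at 12 h than at 0.5 h in the 54 arrays, called each time (limma adjusted p from 6.11e-09 to 0.00771). All genes called higher in these 4 comparisons made up 0.521%, 9.09%, 19.3% and 20.1%. With 59 arrays the 8 h and 12 h values were 2.53 and 2.26 and were still called (limma adjusted p = 0.00294 and 0.00554, with 12.1% and 17.1% of genes called higher), and the 1.5 h and 3 h values were not (2.15 and 2.00, limma adjusted p = 0.26 and 0.0631). Within DMSO it was not called, with 0.13, 0.90, 0.45 and 0.73 at the 4 later times in the 54 arrays (limma adjusted p from 0.123 to 0.899).

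In order of mean level over the 54 arrays, PDK4 stood lowest in DMSO at 0.5, 1.5 and 8 h (4.91, 5.03 and 5.35), then in RSG at 0.5 h (5.52), DMSO at 12 and 3 h (5.64 and 5.81), RSG at 3, 1.5 and 8 h (7.52, 7.67 and 8.77) and RSG at 12 h (9.17). DMSO 0.5 h and 1.5 h, DMSO 8 h through DMSO 3 h, and RSG 3 h and 1.5 h were closer to their neighbour in this order than the larger of the SDs. Without the 3 arrays that went against their labels the order changed, with RSG at 3 h at 8.03, DMSO at 3 h at 5.33 and RSG at 0.5 h at 5.12.

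**Figure D2:**
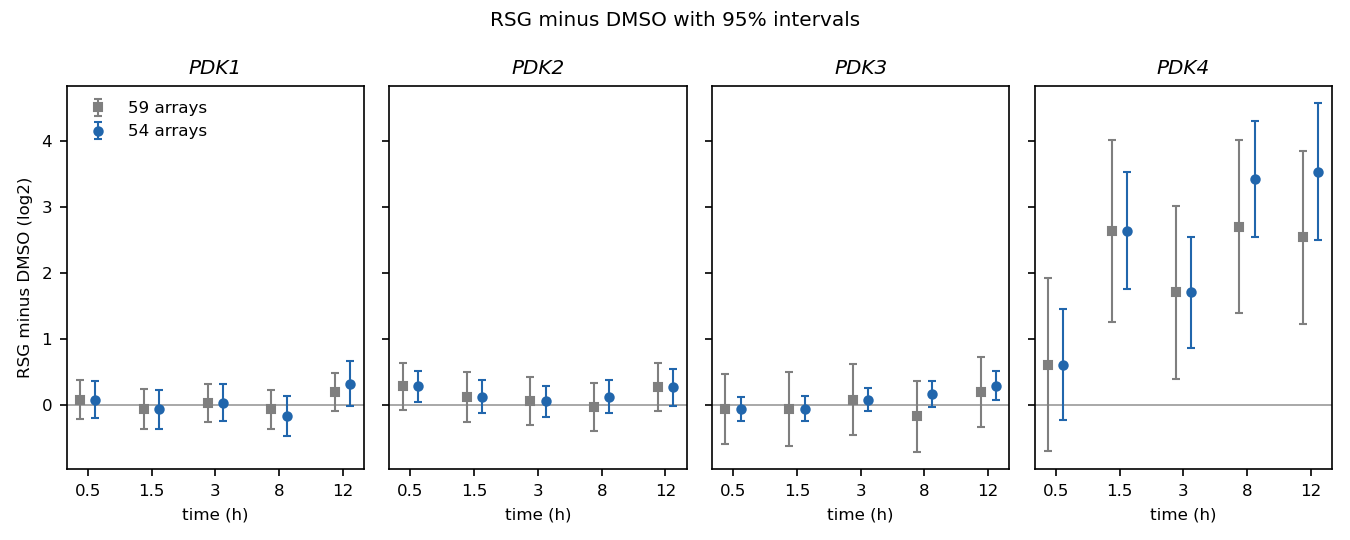
RSG minus DMSO on the log2 scale at each time in hours for the 4 PDK genes, with 95% intervals from limma, in the 59 arrays (grey squares) and the 54 arrays (blue circles). PDK4 lies at 0.61 at 0.5 h and between 1.71 and 3.53 later, and PDK1, PDK2 and PDK3 lie between -0.17 and 0.32.

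The other PDK genes did not pass the limma test of RSG against DMSO at any time. Taken singly, PDK1 and PDK3 at 8 h and PDK3 at 12 h had exact two-sided permutation p-values of 0.0238, 0.0303 and 0.0286 in the 54 arrays, and of 0.535, 0.985 and 0.574 in the 59. They were not adjusted for the 20 such tests per set of arrays. The 20 include those of PDK4, with exact permutation p-values of 0.00216, 0.00216 and 0.0286 at 1.5, 8 and 12 h in the 54. PDK1, the HIF1A target, had differences of 0.08, -0.06, 0.03, -0.17 and 0.32 at the 5 times in the 54 arrays, each with an SE of 0.14 to 0.17. At 12 h PDK1 read 5.72, 5.39, 5.65 and 5.11 on the RSG arrays and 5.36, 5.16, 5.30 and 4.76 on the DMSO arrays, with a 95% interval of the difference of -0.02 to 0.67 (limma adjusted p = 0.523).

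PDK2 differed by 0.28, 0.12, 0.06, 0.12 and 0.27. The highest bound of its intervals in the 54 arrays was 0.55, at 12 h, or 1.47-fold. At 0.5 h PDK2 had a lowest, median and highest value of 5.75, 5.92 and 6.34 with RSG and of 5.48, 5.63 and 6.00 with DMSO (limma adjusted p = 1), and the highest value came from the array labelled RSG 0.5 h replicate 6.

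PDK3 differed by -0.06, -0.06, 0.08, 0.17 and 0.29. Its 12 h values were 7.35, 7.28, 7.49 and 7.47 with RSG and 7.10, 7.10, 7.15 and 7.06 with DMSO, so the groups did not overlap, as for 2.69% of all genes. The size was 1.23-fold (95% interval 1.05 to 1.43) and the limma adjusted p was 0.224, so this difference did not pass. With the arrays apart included, the 12 h difference was 0.19 (SE 0.27, limma adjusted p = 1) and the groups overlapped.

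PDK4 was set directly against each of its relatives by taking PDK4 minus the other gene on every array. At 1.5 h this difference was larger with RSG than with DMSO by 2.70 for PDK1, 2.52 for PDK2 and 2.70 for PDK3, each with an exact two-sided permutation p of 0.00216, the smallest possible. At 8 h the values were 3.59, 3.30 and 3.26 in the 54 arrays, also with an exact p of 0.00216, and with RSG 8 h replicate 1 they were 2.78, 2.73 and 2.88 with exact p-values of 0.0152, 0.00866 and 0.00216. At 12 h they were 3.21, 3.27 and 3.24 in the 54 arrays, with an exact p of 0.0286, the smallest that 4 and 4 arrays allow. In the 59 arrays the 12 h values were 2.35, 2.27 and 2.35 with exact p-values of 0.0433, 0.0238 and 0.00216. At 0.5 and 3 h these exact tests gave p-values of 0.0541 or more. There were 15 such tests per set of arrays, and their p-values were not adjusted for this number.

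**Figure D3:**
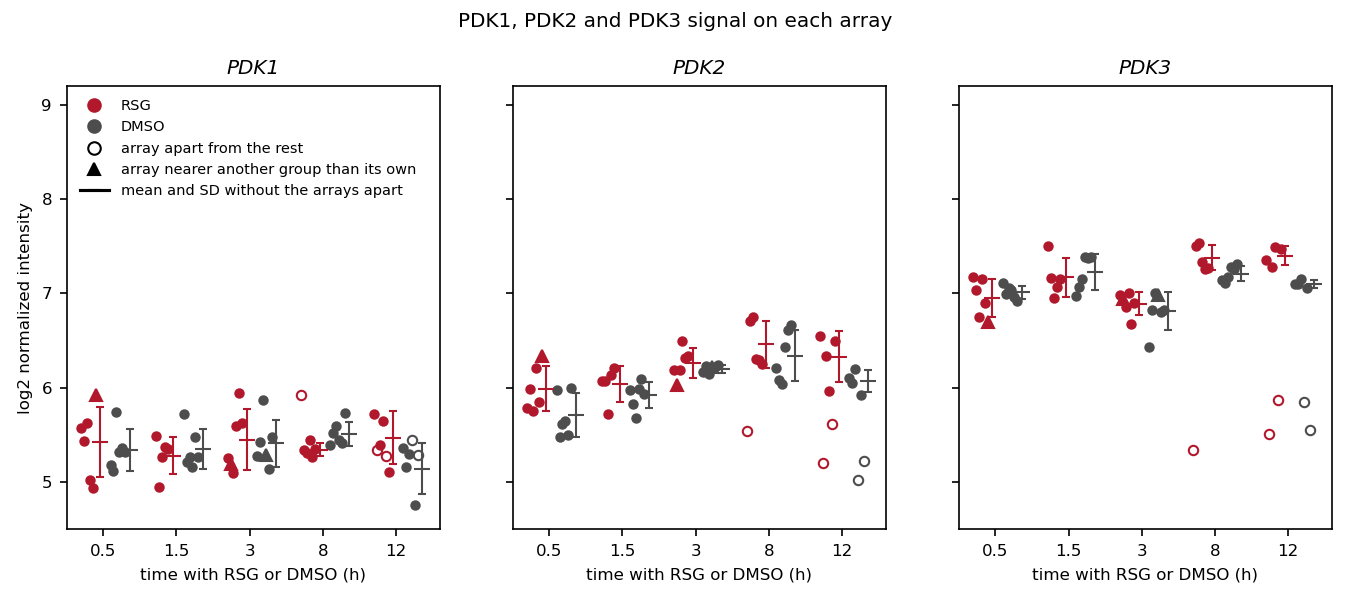
PDK1, PDK2 and PDK3 log2 normalized intensity on each array against time in hours at equal steps, RSG in red and DMSO in grey, with open circles for the 5 arrays apart, triangles for the 3 arrays nearer another group, and bars for the mean and SD of the 54 arrays. PDK2 climbs to 8 h in both treatments, PDK3 is lowest at 3 h, and the arrays apart lie lowest for PDK2 and PDK3 in their groups.

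PDK2 and PDK3 moved with time. PDK2 had a lowest, median and highest value of 6.14, 6.22 and 6.24 in DMSO at 3 h and of 6.04, 6.32 and 6.67 at 8 h, against 5.48, 5.63 and 6.00 at 0.5 h. It was higher than at 0.5 h by 0.50 at 3 h, 0.63 at 8 h and 0.36 at 12 h in the 54 arrays (limma adjusted p = 0.00144, 1.6e-05 and 0.0242), where 12%, 21.2% and 21.3% of all genes were called higher. In RSG it was higher by 0.48 at 8 h and 0.35 at 12 h (limma adjusted p = 0.00171 and 0.0304). The 12 h calls were kept in 6 of 10 fits without 1 array in DMSO (0.32 to 0.42) and in 4 of 10 in RSG (0.28 to 0.47). With 59 arrays only the 8 h rise in DMSO was called among the PDK2 values against 0.5 h (0.63, limma adjusted p = 0.00646, with 14.9% of genes called higher), and with average normalization it was not (0.34, limma adjusted p = 0.0623). The 12 h call of the 54 arrays in DMSO was lost with average normalization as well (0.21, limma adjusted p = 0.0766).

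PDK3 was higher in RSG at 8 h and 12 h than at 0.5 h, by 0.43 and 0.45 in the 54 arrays (limma adjusted p = 0.000303 and 0.000319), where 19.3% and 20.1% of all genes were called higher. In RSG it read 7.50, 7.53, 7.33, 7.26 and 7.27 at 8 h, and 5.34 on the array apart, and its lowest, median and highest values at 0.5 h were 6.70, 6.97 and 7.17. With all 59 arrays neither was called and the 12 h sign turned (0.09 and -0.12, limma adjusted p = 0.867 and 0.77). Between 1.5 and 3 h it fell by 0.27 in RSG (limma adjusted p = 0.0385, 7.18% of genes called lower), and at 8 h it was 0.49 higher than at 3 h (limma adjusted p = 7.93e-05, 14.1% called higher). The 1.5 to 3 h fall was called in 6 of 11 fits without 1 array (-0.33 to -0.19), and the other PDK3 calls in all such fits of the 54 arrays. In the 59 arrays neither step was called (-0.27 and 0.15, limma adjusted p = 0.636 and 0.773). In DMSO its 3 h value differed by -0.20 and its 8 h value by 0.20 from 0.5 h, neither called in the 54 arrays, although with the authors' scaled table the 8 h value was 0.42 and was called (limma adjusted p = 0.00127). The RSG and DMSO courses of PDK3 were not shown to differ, with a limma adjusted p of 1 for the joint test. PDK1 was not called in any comparison with 0.5 h.

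Arrays within a group also fell to 2 sides of the first component of the residuals, which held 25.1% of the residual variance of the 54 arrays. At 8 h PDK2 read 6.25 to 6.30 in RSG and 6.04 to 6.21 in DMSO on the side above 0 (RSG replicates 4 to 6, DMSO replicates 1 to 3), and 6.71 to 6.75 in RSG and 6.43 to 6.67 in DMSO on the side below 0. PDK3 read 7.26 to 7.33 in RSG and 7.11 to 7.17 in DMSO above 0, and 7.50 to 7.53 in RSG and 7.26 to 7.31 in DMSO below 0. PDK4 ran the other way, with 8.89 to 9.13 in RSG and 5.56 to 5.64 in DMSO above 0, and 8.37 to 8.51 in RSG and 5.03 to 5.23 in DMSO below 0. On both sides the RSG arrays lay above the DMSO arrays for PDK2, PDK3 and PDK4, but not for PDK1. Each side held only 2 or 3 arrays per treatment, and the share of all genes that separate in this way was not counted. Without the split, the 8 h groups of PDK2 and PDK3 overlapped in the 54 arrays, and neither gene was called. The sides were drawn from these same arrays, so these ranges are a description.

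No gene of the complex that the kinases act on passed the test. Of 10 genes of the pyruvate dehydrogenase complex and its phosphatases, 9 were tested, and 0 of 9 were called at any time in either set of arrays. Of all genes, 1.15% at 8 h and 1.82% at 12 h were called in either direction in the 54 arrays, and 0.0955% at 8 h in the 59. A count of 0 of 9 is near these shares and is no result about the complex. At 12 h in the 54 arrays the lowest and highest differences of the 9 genes were -0.37 and 0.22. Their median was -0.02, as it was over all genes. PDHA1, the E1 alpha subunit that the kinases phosphorylate, differed by 0.22 (SE 0.23) at 12 h and PDHB, the E1 beta subunit, by -0.02 (SE 0.10).

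Among 16 tested genes of pyruvate supply and its other fates, 1 was called higher at 8 h and 12 h (0.79% and 1.16% of all genes). It was ME3, a mitochondrial malic enzyme that makes pyruvate from malate, at 0.55 (SE 0.12, limma adjusted p = 0.00833) and 0.70 (SE 0.15, limma adjusted p = 0.00284) in the 54 arrays. Averaged over the times in these arrays, 1 of the 16 was called higher and 1 lower (142 and 47 of all genes). LDHA, which reduces pyruvate to lactate, differed by 0.00 (SE 0.10) at 12 h, and MPC1, a subunit of the mitochondrial pyruvate carrier, by -0.43 (SE 0.14, limma adjusted p = 0.104). Of 29 hypoxia and glycolysis genes, 2 were called lower at 12 h, where 0.66% of all genes were, PFKP, a phosphofructokinase (-0.60, limma adjusted p = 0.000116), and SLC2A3, a glucose transporter (-0.52, limma adjusted p = 0.0103, lost without DMSO 12 h replicate 2 or RSG 12 h replicate 3). None was called higher.

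The fatty acid oxidation list had 3 of 28 genes called higher and 1 called lower at 12 h in the 54 arrays, against 1.16% and 0.66% of all genes. SLC25A20, the carnitine-acylcarnitine carrier, was 1.00 higher (limma adjusted p = 6e-04), ECI1, an enoyl-CoA isomerase, 0.54 higher, and ACAA2, a thiolase, 0.45 higher, the last pair being called in 3 of 8 fits without 1 array each. ACAD11, an acyl-CoA dehydrogenase, was 0.83 lower in intensity on the log2 scale (difference -0.83, limma adjusted p = 0.000329). The list median was 0.19.

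A list of genes that PPAR ligands are known to raise was also followed. Of 16 lipid uptake, binding and droplet genes, 7 were called higher at 8 h and 8 at 12 h in the 54 arrays (0.79% and 1.16% of all genes), with a median of 0.82 at 12 h. FABP4, a fatty acid carrier, was 2.29 higher and PLIN2, the coat protein of lipid droplets, 1.76 higher, while LPL, a secreted lipase, differed by -0.28 (SE 0.18, limma adjusted p = 0.631). PDK4 had the highest log2 difference of all 11515 genes at 1.5, 8 and 12 h in the 54 arrays (2.64, 3.42 and 3.53). Of 15 nuclear receptors and cofactors linked to PDK4, 0 were called in the 54 arrays, where 1.82% of all genes were called in either direction at 12 h. PPARG itself differed by 0.24 (SE 0.09, limma adjusted p = 0.242) at 12 h. Of 11 tested macrophage markers, 2 were called lower at 12 h, against 0.66% of all genes, FCGR2A, an Fc receptor (-0.60), and CD163, a haemoglobin scavenger receptor (-0.52), called in 4 and 3 of 8 fits without 1 array, and their part in the PDK results was not tested. None of the 22 inflammatory and dendritic, 2 T cell, 4 B cell, 1 erythroid and 2 fibroblast and epithelial genes tested was called at any time in the 54 arrays. With all 59 arrays 0 members of these lists were called at any single time. Of all genes, 1.15% at 8 h and 1.82% at 12 h were called in either direction in the 54 arrays. In the 59 these shares were 0.0955% and 0.0261%. Counts of 0 in lists this short are near such shares and do not show that these genes stayed unchanged.

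**Figure D4:**
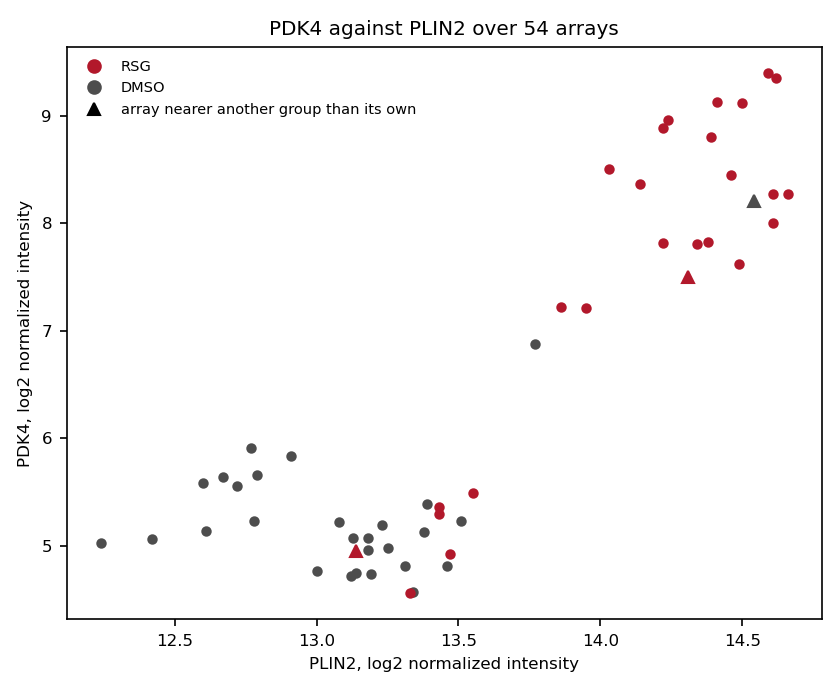
PDK4 against PLIN2, both as log2 normalized intensity, on the 54 arrays that do not stand apart, RSG in red and DMSO in grey, with triangles for the 3 arrays nearer another group. The arrays run from low to high in both genes, and each triangle lies with the arrays of the treatment or time it resembles, with PLIN2 at 14.54 and PDK4 at 8.21 for the one labelled DMSO 3 h replicate 4.

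Over the 54 arrays the genes with the pattern most like PDK4 were RDH10, a retinol dehydrogenase (Pearson r = 0.92), PHLDA3, known as a p53 target that restrains AKT (0.89), LRATD2 (0.88), PLIN2 (0.86) and FAM89A (0.86). After subtraction of the group means r was 0.85, 0.71, 0.79, 0.94 and 0.74, with PLIN2 first. These values include the 3 arrays that went against their labels, and the part of those arrays in them was not tested. On these arrays the PPARG targets PLIN2 and ANGPTL4 were high or low as PDK4 was. PLIN2 was 14.54 on DMSO 3 h replicate 4, 14.31 on RSG 0.5 h replicate 6 and 13.14 on RSG 3 h replicate 2, and ANGPTL4, which blocks lipoprotein lipase outside the cell, was 8.15, 8.83 and 5.72 on the same arrays. FABP4, a further target, set the 3 h arrays less apart, at 11.85, 12.19 and 11.04 in the same order. Without these arrays FABP4 ran from 10.92 to 11.86 in DMSO and from 11.31 to 11.88 in RSG at 3 h. DMSO 3 h replicate 1, between the groups in PDK4 at 6.88, had PLIN2 at 13.77, below replicate 4 and above the others of its group.

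PDK2 was most like STRADA, a partner of the kinase LKB1 (r = 0.79), TYSND1, a peroxisomal protease (0.78), FN3KRP (0.78), TEX11 (0.77) and THEM6 (0.75). PDK3 was most like SRPK1, a kinase of splicing factors (0.79), UCHL5, a deubiquitinase (0.78), ERO1A, an oxidase of the endoplasmic reticulum (0.77), ZNF256 (0.76) and CD14, the lipopolysaccharide co-receptor (0.76), but over all 59 arrays r was 0.22 for SRPK1 and 0.89 for CD14. For PDK1 no gene passed an r of 0.48. Among the PDK genes themselves r over the 54 arrays ran from -0.08 (PDK1 and PDK3) to 0.49 (PDK2 and PDK4), and within groups the value for PDK2 and PDK4 was 0.11. All points share the 10 groups, so these values describe the pattern and were not tested.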

How the data were processed

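Probe intensity was measured on 59 arrays. The authors scanned the BeadChips and deposited raw bead-averaged intensity with detection p-values, and a second table of intensity after average normalization in BeadStudio. From the raw table, background correction and quantile normalization were done with limma 3.58.1 (neqc, offset 16) in R 4.3.3. Probes had to reach a detection p under 0.01 on 5 or more arrays, and the brightest per gene was taken, which left 11515 genes. All 4 PDK probes passed. 1 mean per treatment and time was fitted, contrasts were tested with moderated statistics, and p-values were Benjamini-Hochberg adjusted over all genes at 0.05. An array stood apart with a median correlation under 0.95. The methods' linear model of treatment and time enters as the average over times. Single values were checked with exact permutation tests. On simulated data with 100 genes changed by 2 on the log2 scale at 8 h among 11515, the fit of 59 arrays called 98 and that of 54 arrays 100. Of 100 genes changed by 1 they called 89 and 96, and of the unchanged genes 9 and 15. The simulated noise was independent between arrays, with no arrays apart, so these counts do not show how many changes the fits find in the real data. Alternatives changed the normalization, background correction, offset, probe filter, probe choice, variance model, arrays in the fit and replicate block, and left out each array in turn. In the 54 arrays a further alternative took the side of the first residual component as a block. Gene names came from the platform annotation, updated through RefSeq. The members, gene lists and named genes (the closest 5 per PDK gene, up to 4 called and 2 uncalled per list) were chosen with earlier results of these data known.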

Additional observations from a re-analysis of the deposited data

Results flagged for a closer look

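Of the 40 sets of arrays (4 genes in 10 groups), 7 held an array whose gap to the next exceeded the 95% limit of Dixon's test, which flags about 1 set in 20 by chance. On RSG 8 h replicate 1, an array apart, PDK4 was 4.46 where the other 5 ran from 8.37 to 9.13, PDK3 was 5.34 against 7.26 to 7.53 on the others, and PDK1 was 5.92 against 5.26 to 5.45. PDK4 was 7.50 on the array labelled RSG 0.5 h replicate 6, the others being 4.56 to 5.49, and 4.95 on the array labelled RSG 3 h replicate 2, the others being 7.62 to 8.45. PDK2 was 5.72 on RSG 1.5 h replicate 3 (others 6.07 to 6.21), and PDK3 was 6.43 on DMSO 3 h replicate 1 (others 6.80 or more).

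The RSG effect on PDK4 differed between times in the 54 arrays. It was 2.81 larger at 8 h and 2.92 larger at 12 h than at 0.5 h on the log2 scale, and the joint limma test over the 5 times had an adjusted p of 0.0185. With the authors' scaled table this adjusted p was 0.0641, and with all 59 arrays it was 1.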

How the results depend on the processing

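With 59 arrays the average difference of PDK4 over the times was called under all 9 alternatives (1.41 to 2.44). In the 54 arrays its differences at 1.5, 8 and 12 h were called under all 13 alternatives (1.64 to 3.28, 2.49 to 4.10 and 2.67 to 4.05), and that at 3 h under none of the same 13 (1.15 to 2.11), the fits without 1 array being given below. PDK4 had no value where probes had to be detected on all arrays. The alternatives for the 54 arrays and the 3 arrays left out at 0.5 and 3 h were chosen after seeing the data. The cause of the changes below was not tested.

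Single values of PDK4 in the 59 arrays that came to pass were 2.14 at 8 h with an offset of 50 (limma adjusted p = 0.036), 2.64 at 1.5 h from only the 2 groups compared (7.51e-06), and, with array weights, 2.79, 3.37 and 3.32 at 1.5, 8 and 12 h and F = 9.0 between times (limma adjusted p from 1.23e-08 to 0.00549). Without the 5 arrays apart they were 2.64, 3.42 and 3.53 and F = 7.69, which became 6.50 with the authors' scaled table (limma adjusted p = 0.0641). Without the array labelled RSG 0.5 h replicate 6, PDK4 differed by 0.22 at 0.5 h. PDK4 minus PDK1 was 0.68 at 0.5 h with the authors' table (exact permutation p = 0.0281), and with average normalization PDK4 minus PDK1, PDK2 and PDK3 at 3 h was 1.19, 1.14 and 1.10 (exact permutation p = 0.0455, 0.0455 and 0.0498).

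Counts of called genes in the 59 arrays were 0 at 1.5 h, 0 at 3 h, 11 at 8 h and 3 at 12 h. They became 1 at 1.5 h and 5 at 12 h with the authors' table, 5 at 8 h and 0 at 12 h with average normalization, 13 at 1.5 h and 0 at 12 h from only the 2 groups, 20, 1, 231 and 109 at 1.5, 3, 8 and 12 h with array weights, and 6, 132 and 210 at 1.5, 8 and 12 h without the arrays apart. In those 54 arrays the 6 genes at 1.5 h became 3 with the authors' table or with probes detected on all arrays, 2 without a filter or with the plain linear model, 31 with array weights and 13 from only the 2 groups. The 132 at 8 h became 321 with array weights, and the 210 at 12 h became 135 with average normalization and 59 from only the 2 groups.

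Signs that turned were all of PDK values not called before. With the authors' table these were, against 0.5 h, PDK1 in DMSO at 1.5 h (-0.04), PDK3 in RSG at 3 h (0.02), PDK1 in RSG at 12 h (0.06, 59 arrays) and at 8 h (0.01, 54 arrays). With average normalization they were RSG minus DMSO of PDK1 at 3 h (-0.02) and, against 0.5 h, PDK1 and PDK4 in DMSO at 1.5 h (-0.11 and -0.06), PDK2 in DMSO at 12 h (-0.03), PDK2 in RSG at 1.5 and 12 h (-0.05 and -0.06), and PDK1 in RSG at 3 and 8 h (-0.07 and -0.13). With array weights they were RSG minus DMSO of PDK1 and PDK2 at 3 h (-0.11 and -0.01) and of PDK2 and PDK3 at 8 h (0.14 each), and, against 0.5 h, PDK3 in DMSO at 12 h (0.06), PDK1 in RSG at 3, 8 and 12 h (-0.07, -0.03 and 0.13) and PDK3 in RSG at 12 h (0.32, limma adjusted p = 0.0288). Without the arrays apart they were PDK2 and PDK3 at 8 h (0.12 and 0.17), PDK3 in DMSO at 12 h (0.09), PDK1 in RSG at 8 and 12 h (-0.07 and 0.05) and PDK3 in RSG at 12 h (0.45, limma adjusted p = 0.000319).

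Leaving out 1 array at a time, PDK4 in the 59 arrays ran from 2.49 to 3.42 at 8 h, called only without RSG 8 h replicate 1, and from 2.22 to 3.20 at 12 h, called only without RSG 12 h replicate 2 or 5, and the counts of called genes ran from 0 to 1 at 1.5 h and 3 h, 5 to 21 at 8 h and 0 to 33 at 12 h. In the 54 arrays PDK4 ran from 1.49 to 2.22 at 3 h, called only without DMSO 3 h replicate 4 or RSG 3 h replicate 2, and stayed called in every fit at 1.5, 8 and 12 h, while the counts ran from 2 to 5 at 1.5 h, 0 to 14 at 3 h, 96 to 129 at 8 h and 119 to 228 at 12 h. Differences that crossed 0 were those of PDK1 at 0.5 h (-0.02 to 0.17), 1.5 h (-0.11 to 0.02) and 3 h (-0.07 to 0.12) and, in the 59 arrays, of PDK2 at 8 h (-0.12 to 0.12) and of PDK3 at 8 h (-0.27 to 0.17) and 12 h (-0.02 to 0.45).

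Replicate numbers do not pair the samples (mean residual correlation of same-numbered arrays -0.44 to -0.01 at the 5 times). With the replicate block PDK4 differed by 0.61, 2.72, 1.71, 2.70 and 2.54 at the 5 times in the 59 arrays, with 0, 0, 0, 11 and 4 genes called, and no PDK value changed its call. As the numbers do not pair the samples, this block cannot show how the results would hold under a true pairing.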
